A study of Homo sapiens with 24 samples.

Results

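The FAM72 and SRGAP2 genes are neighbours that were copied together during human evolution, so that human chromosome 1 carries 4 near-identical pairs of them, each pair reading away from a shared promoter stretch. H3K4me3, the trimethylation of lysine 4 of histone H3 found at active promoters, was examined at 7 protein-coding genes of this family, FAM72A, FAM72B, FAM72C, FAM72D, SRGAP2, SRGAP2B and SRGAP2C. The genes were chosen by family, after the promoter shared by FAM72B and SRGAP2C had stood out in an earlier look at the authors' comparison of cell states, which is not used here. All regions of the deposited H3K4me3 table that overlapped 2 kb either side of any start site of these genes were listed. This gave 6 regions out of 97545 in the table, or out of 23103 within the same distance of a start site of any of 20020 protein-coding genes. Of the 7 genes, 6 had a region and FAM72C had none, and over all protein-coding genes 15085 of 20020 had one. Each of the 6 regions lay within reach of both genes of a pair, so that the 7 genes gave 12 gene-region pairs but only 6 measurements.

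FAM72A binds the uracil glycosylase UNG and lowers its level, and FAM72 genes are known from dividing cells. SRGAP2 acts downstream of SLIT ligands and their ROBO receptors, carries an F-BAR domain that bends membranes, and promotes the maturation of dendritic spines. Its human-specific copies SRGAP2B and SRGAP2C encode shortened proteins that keep most of the F-BAR domain, and SRGAP2C is known to bind SRGAP2 and hold it back. The fourth copy, SRGAP2D, lies beside FAM72C and is annotated as a pseudogene.

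The chromatin came from EndoC-βH3 cells, a human beta cell line made from fetal pancreas with hTERT and SV40 Large T-antigen and annotated with the genotype WT. The H3K4me3 samples were 4 of non-senescent cells (treatment, control) and 4 of senescent cells (treatment, Senescence induction), with 500000 cells each. Senescence induction was a treatment with 4-hydroxytamoxifen for 3 weeks, upon which CreER excises both immortalising genes, so that the groups differ in treatment and in these transgenes together. Another 16 samples, of other histone marks, were not analysed here.

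The table holds, for each region, the authors' mean normalized count over all samples, with both states pooled and with no value per sample. The levels below are these means, so no SD, n or test can be given for them, the depth per sample is unknown, and differences between non-senescent and senescent cells are not described. The cell type was checked at the promoters of beta cell markers, 11 of 12 of which had a region, with a median of 260 for the strongest region per gene. The beta cell transcription factors PAX6 and ISL1 had means of 665 and 588, the insulin gene INS had 24.7, the amylin gene IAPP 6.94, and MAFA, a factor of mature beta cells, had no region. Among the other endocrine markers, GHRL had 26.3, SST 21.9 and GCG 5.30, and PPY had no region. The duct genes KRT19 and SOX9 had 24.1 and 17.0 and the endothelial gene PECAM1 17.6, so that several of these markers stood near INS and above IAPP. The acinar genes PRSS1 and CPA1 had 1.12 and 4.17, the fibroblast gene COL1A1 had 4.37, and the immune gene PTPRC had no region.

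The 4 loci were aligned on the FAM72 strand, and positions are given from the start of transcript FAM72A-202 at chr1:206202839 (hg38), with negative positions upstream of FAM72A and toward SRGAP2. The FAM72A and SRGAP2 starts are divergent, with SRGAP2-203 starting at -702 on the opposite strand. The starts of the copies fell close to these places, FAM72B-202 at -36, FAM72C-202 at -31 and FAM72D-201 at -60 for FAM72, and SRGAP2C-202 at -671 and SRGAP2B-207 at -706 for SRGAP2. The only annotated start of SRGAP2D was farther away, at -3132.

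The 250 bases before a FAM72 start are shown because their repetition bears on how far a read can be placed. They come from the RefSeq promoter table for GRCh38.p14, which holds 6 of the 7 genes, all but FAM72B. The stretches lie at chr1:206202840-206203089 (FAM72A, minus strand), chr1:143971987-143972236 (FAM72C, minus strand) and chr1:145095724-145095973 (FAM72D, plus strand), and the capital marks the base that differs within the bases shared with the FAM72A promoter, A42G with positions counted from the first printed base of FAM72A.
FAM72A: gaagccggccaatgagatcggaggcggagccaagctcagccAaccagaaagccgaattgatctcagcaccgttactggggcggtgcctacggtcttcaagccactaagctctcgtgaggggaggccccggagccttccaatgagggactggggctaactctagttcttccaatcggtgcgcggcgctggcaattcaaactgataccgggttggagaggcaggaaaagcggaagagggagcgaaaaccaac
FAM72C: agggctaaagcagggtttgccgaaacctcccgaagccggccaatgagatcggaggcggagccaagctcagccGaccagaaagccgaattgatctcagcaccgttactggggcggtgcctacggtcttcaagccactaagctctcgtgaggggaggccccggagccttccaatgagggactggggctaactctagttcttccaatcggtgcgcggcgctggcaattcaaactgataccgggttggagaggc
FAM72D: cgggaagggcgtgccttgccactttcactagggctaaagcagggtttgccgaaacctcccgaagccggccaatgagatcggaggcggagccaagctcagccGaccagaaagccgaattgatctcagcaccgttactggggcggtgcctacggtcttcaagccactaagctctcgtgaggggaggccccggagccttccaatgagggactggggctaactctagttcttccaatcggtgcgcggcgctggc
FAM72C matched FAM72A at 99.6% of the 269 bases that their 300-base promoters share, with 1 substitution, and FAM72D matched it at 99.6% of 240 bases with the same substitution. In the genome, over the 300 bases that end 50 bases after the FAM72A start, FAM72A differed from each of the other 3 copies by 1 base, and FAM72B, FAM72C and FAM72D were identical. These promoters had a GC content of 58.7% to 59.7% and 20 or 21 CpG sites.

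Each of the 3 FAM72 promoters held 3 matches to CCAAT, the element bound by NF-Y, 1 match to TTTGAA or TTCGAA, the CHR element of many genes expressed in dividing cells, and 1 match to GGGCGG, the GC box bound by SP1. None held TATAAA or an E2F-type element (TTTGGCGC, TTTCGCGC, TTTCCCGC or TTTGGCGG). All motifs were searched on both strands of the 300-base promoters, and none of them contains another. Of 35116 promoters in the table, 34.6% held CCAAT, 16.4% a CHR element, 45.0% GGGCGG, 11.5% TATAAA and 3.35% the E2F-type element. The CHR match lay at -58 from the FAM72A start, -27 from that of FAM72C and 2 bases past that of FAM72D, which is the same aligned base in copies whose annotated starts differ. The promoters of SRGAP2, SRGAP2B and SRGAP2C each held 2 matches to CCAAT and 2 to GGGCGG, and none of the other motifs. A match is a description of the letters and not a measured binding site.

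At FAM72A and SRGAP2 the table listed 3 regions. The first, chr1:206201540-206202353, lay at 486 to 1299 inside FAM72A and had a mean normalized count of 37.5. All of its 814 bases were exonic in FAM72A, 153 of them coding, and it lay 993 bases from the nearest SRGAP2 start. The next, chr1:206202952-206204279, lay at -1440 to -113, spanned the SRGAP2 starts at -507 to -1069 and the FAM72A starts at -1226 and -1254, and had a mean of 25.7. The last, chr1:206205248-206206171, lay at -3332 to -2409 over the SRGAP2 starts SRGAP2-201, SRGAP2-214 and SRGAP2-216 and had the highest mean of the 3, 48.1. It was wholly exonic in SRGAP2, with 67 coding bases, and lay outside FAM72A. The bases from -113 to 486, which hold the main FAM72A start, were in none of them.

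At FAM72B and SRGAP2C there were 2 regions. The region chr1:121183301-121184145, at 159 to 1002, had a mean of 64.0, the highest of the 6. It was wholly exonic in FAM72B, with 152 coding bases, and lay 666 bases from the nearest SRGAP2C start. The region chr1:121184508-121185008, at -696 to -204 over the SRGAP2C starts at -507 and -671, had a mean of 4.39, the lowest of the 6. Here too the main FAM72 start, at -36, lay between the regions.

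At FAM72D and SRGAP2B there was 1 region, chr1:145096706-145097206, at 672 to 1172, with a mean of 24.3. It covered 294 exonic bases of FAM72D, 152 of them coding. Exonic bases were counted over all annotated transcripts, 1 for FAM72D beside 8 for FAM72A and 7 for FAM72B. The region lay 732 bases from the FAM72D start and 1178 bases from the nearest SRGAP2B start, the largest distance of any listed pair. With a window of 1 kb it would no longer count for SRGAP2B, and with one of 5 kb no further region came in at any of the genes, FAM72C included.

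**Figure D1:**
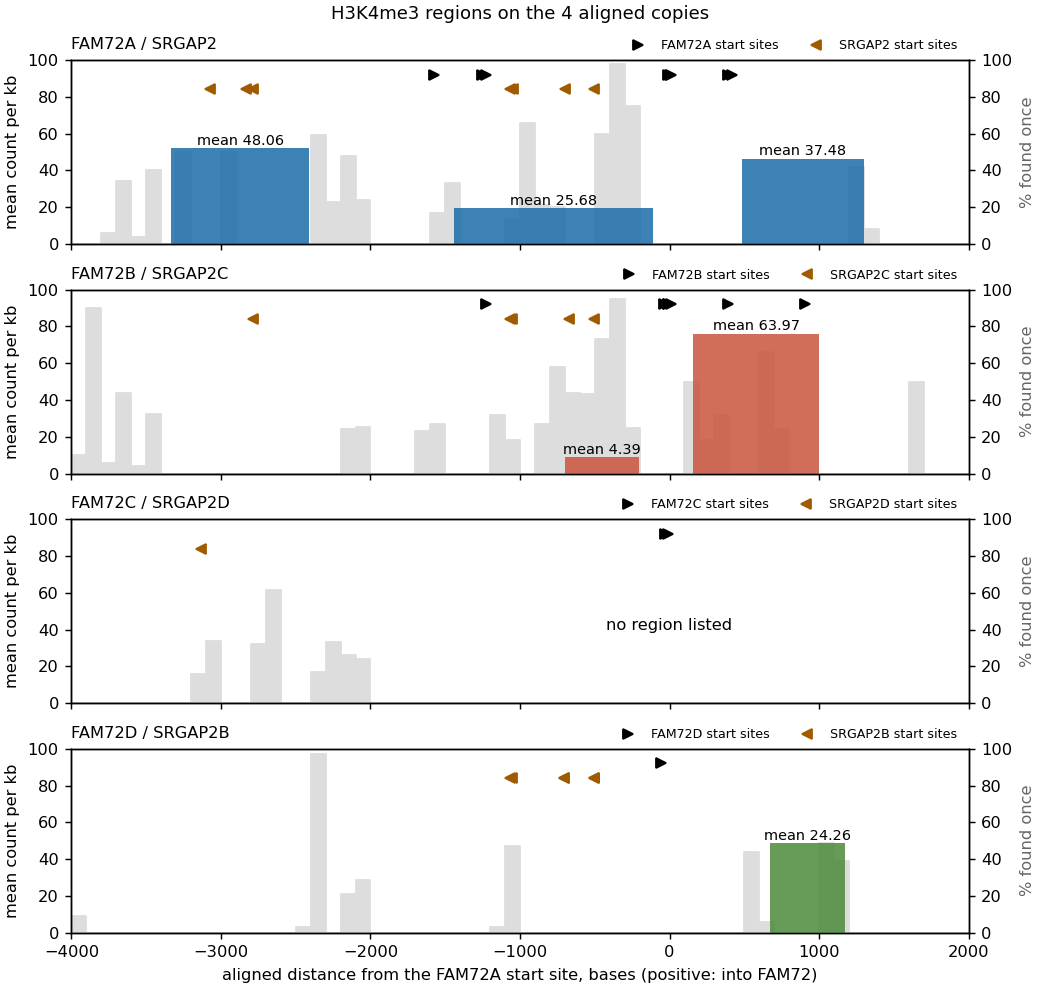
The H3K4me3 regions of the 4 aligned gene pairs are drawn as bars over the distance from the FAM72A start in bases, with the authors' mean normalized count per kb of region as bar height and the mean itself above. Triangles mark annotated start sites, and grey shading gives the percentage of 50-base stretches found once in hg38 per 100-base bin. The regions of FAM72A, FAM72B and FAM72D overlap downstream of the FAM72 start, FAM72C has none, and the grey shading is absent from -113 to 159 in all copies but for 1 bin of FAM72B.

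The regions of FAM72A, FAM72B and FAM72D downstream of the FAM72 start shared an aligned stretch of 331 bases, from 672 to 1002, in which 2 columns differed among the 4 copies. It lay at chr1:206201837-206202167 in FAM72A, chr1:121183301-121183631 in FAM72B, chr1:143970953-143971283 in FAM72C and chr1:145096706-145097036 in FAM72D. The means of the regions over it were 37.5, 64.0 and 24.3 in FAM72A, FAM72B and FAM72D, and the FAM72C stretch had no region. The first coding exon of FAM72 lies inside it and is shown because it is the sequence under all 3 regions. It runs from the start codon through 152 bases, at chr1:206201874-206202025, chr1:121183338-121183489 and chr1:143970990-143971141 on the minus strand and chr1:145096848-145096999 on the plus strand (hg38), with the differing base in capitals.
FAM72A: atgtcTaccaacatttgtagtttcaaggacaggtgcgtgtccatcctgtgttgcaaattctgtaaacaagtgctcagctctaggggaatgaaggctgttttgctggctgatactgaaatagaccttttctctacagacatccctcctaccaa
FAM72B: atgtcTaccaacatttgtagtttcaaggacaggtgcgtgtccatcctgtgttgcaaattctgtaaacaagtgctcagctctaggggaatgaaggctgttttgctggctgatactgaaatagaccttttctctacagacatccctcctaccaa
FAM72C: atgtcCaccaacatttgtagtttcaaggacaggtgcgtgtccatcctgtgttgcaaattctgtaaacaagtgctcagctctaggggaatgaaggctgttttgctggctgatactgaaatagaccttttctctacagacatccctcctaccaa
FAM72D: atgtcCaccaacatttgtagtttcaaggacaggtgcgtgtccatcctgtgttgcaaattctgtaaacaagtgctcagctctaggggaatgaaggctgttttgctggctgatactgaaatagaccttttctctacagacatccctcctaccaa
FAM72A and FAM72B were identical here, and FAM72C and FAM72D differed from them by T6C, with positions counted from the start codon. All other bases of the exon were the same in the 4 copies, with and without a listed region.

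The other places did not carry regions in more than 2 copies. Where FAM72A had its region from -1440 to -113, FAM72B had the one with a mean of 4.39 and FAM72C and FAM72D had none. Where SRGAP2 had the region from -3332 to -2409, with a mean of 48.1, the aligned stretches of FAM72B, FAM72C and FAM72D had none. FAM72B differed from SRGAP2 there by 2 substitutions, FAM72C by 4 and FAM72D by 2. The annotated start SRGAP2C-201 lay at -2787, the same aligned base as SRGAP2-201, without a region. An absent region is not shown to mean an absent mark, since these stretches are largely repeated, as described below.

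How far reads can be assigned to a copy was described from the sequence alone. The measure was the number of places in hg38 that hold each stretch of a given length on either strand. The reads were paired, and what the other read of a pair adds to its placing was not counted. For stretches of 24 bases the median was 4 places in each of the 6 regions. Among the 23103 regions near start sites, 98.1% had a median of 1 place and 134 (0.580%) a median of 4 or more. In the FAM72A region at 486 to 1299, 0% of stretches were found once at 24, 36, 50 and 75 bases. In the SRGAP2 region at -3332 to -2409 the share found once went from 5.33% at 24 bases to 17.6% at 75, in the FAM72B region at 159 to 1002 from 8.88% to 27.2%, and in the FAM72D region from 10.0% to 17.1%. The region at -1440 to -113 went from 12.4% to 39.2%. The weak FAM72B and SRGAP2C region at -696 to -204 held the most sequence of its own, 34.9% at 24 bases and 84.1% at 75. Aligned places without a region were described at 50 bases. At -3332 to -2409 the share found once was 0% in FAM72B and FAM72D and 16.4% in FAM72C, beside 11.4% in FAM72A. At -1440 to -113 it was 0% in FAM72C and 3.91% in FAM72D, beside 27.6% in FAM72A and 32.5% in FAM72B. At 486 to 1299 it was 0% in FAM72C, as in FAM72A.

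**Figure D2:**
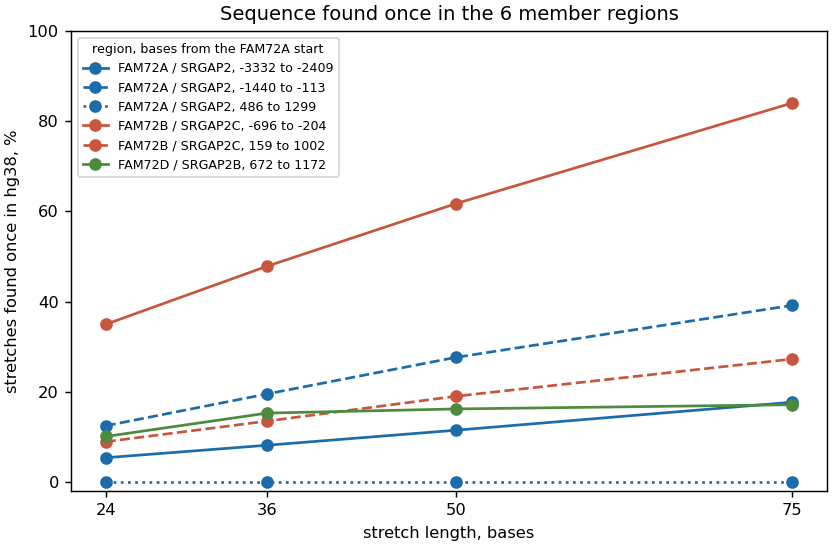
The percentage of stretches found once in hg38 is plotted against stretch length in bases for the 6 regions, coloured by gene pair and named by their distance from the FAM72A start. The FAM72A region at 486 to 1299 stays at 0% at each length, and the region of FAM72B and SRGAP2C at -696 to -204 is the highest at each length and reaches 84.1% at 75 bases.

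Over 2 kb either side of the FAM72A start the copies were 99.45% to 99.9% identical. FAM72C and FAM72D were the closest pair, with 4 substitutions in 4000 aligned bases. FAM72A differed from FAM72C by 13, from FAM72D by 17 and from FAM72B by 21, and FAM72B differed from FAM72C by 18 and from FAM72D by 22. In this window 25.1% of the 75-base stretches of FAM72B were found once, 16.0% of those of FAM72A, 6.57% of those of FAM72D and 0% of those of FAM72C. The regions inside FAM72 had means of 64.0, 37.5 and 24.3 in FAM72B, FAM72A and FAM72D. Their shares at 75 bases were 27.2%, 0% and 17.1%. The order of the means was not that of the shares. Per kb of region the values were 75.8, 46.1 and 48.5, in the same order as the shares. Any part of read placement in the means was not tested, since how the authors placed reads with several best matches is not given in the sources used here.

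The copies differed more around the stretch between the FAM72 and SRGAP2 starts, where 21 of the 501 aligned columns of the weak FAM72B region differed among the 4 copies, against 6 of 815 in the FAM72A region inside the gene. Inserted bases count as differing columns in both, and the 21 include the 9 inserted bases of SRGAP2C. The 90 bases from -340 to -251 are shown to make the substitutions between the starts visible. They lie at chr1:206203090-206203179, chr1:121184555-121184644 and chr1:143972206-143972295 on the minus strand and chr1:145095694-145095783 on the plus strand (hg38), with the 5 columns that differ among copies in capitals.
FAM72A: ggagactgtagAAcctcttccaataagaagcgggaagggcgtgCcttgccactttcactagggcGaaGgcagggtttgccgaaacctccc
FAM72B: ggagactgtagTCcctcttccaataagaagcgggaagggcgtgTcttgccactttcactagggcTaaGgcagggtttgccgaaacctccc
FAM72C: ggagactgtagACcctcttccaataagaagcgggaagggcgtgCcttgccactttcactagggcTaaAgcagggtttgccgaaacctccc
FAM72D: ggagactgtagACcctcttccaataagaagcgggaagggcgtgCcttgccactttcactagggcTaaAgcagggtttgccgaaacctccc
Against FAM72A, counted from the first printed base, FAM72B carried A12T, A13C, C44T and G65T, and FAM72C and FAM72D both carried A13C, G65T and G68A. FAM72C and FAM72D were thus identical in these 90 bases. FAM72A and FAM72B each had a region over this stretch, with means of 25.7 and 4.39, and FAM72C and FAM72D had none. Over the aligned place of the weak region, 42.7% of 50-base stretches of FAM72A and 61.7% of those of FAM72B were found once. In FAM72C and FAM72D the share was 0%. The part of read placement in this listing was not tested.

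On the SRGAP2 side the promoters were also alike. The 300-base RefSeq promoter of SRGAP2B differed from that of SRGAP2 by 1 substitution (C265A) in 296 shared bases. That of SRGAP2C differed by 2 substitutions, A27C and G134T, and 9 inserted bases, at 99.2% identity. The 250 bases before the SRGAP2C start, chr1:121184725-121184974 on the plus strand (GRCh38.p14), lie inside the region with a mean of 4.39 and are shown with both substituted bases in capitals, the positions above being counted from the first base of the SRGAP2 promoter.
SRGAP2C: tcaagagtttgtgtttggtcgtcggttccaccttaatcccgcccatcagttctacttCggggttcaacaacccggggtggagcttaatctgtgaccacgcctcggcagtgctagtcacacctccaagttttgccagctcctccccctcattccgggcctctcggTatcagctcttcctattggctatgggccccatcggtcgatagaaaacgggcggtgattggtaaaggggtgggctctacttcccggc
These promoters had a GC content of 59.7% to 61.0%.

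The regions also differed in base composition with their place. The FAM72A and FAM72D regions inside FAM72 had GC contents of 45.0% and 44.1% and 1.72 and 1.40 CpG sites per 100 bases. The FAM72B region, which reaches closer to the start, had 50.4% and 3.67. The regions over annotated SRGAP2 or SRGAP2C starts had 58.5% to 63.2% and 5.99 to 7.00 CpG sites per 100 bases.

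Regions near start sites had a median mean of 19.3, with quartiles of 5.03 and 55.5. Of the 6 means, 4 lay between these quartiles, 64.0 lay above and 4.39 below. The FAM72B and SRGAP2C region with a mean of 64.0 stood above 78.8% of these regions, the SRGAP2 region with 48.1 above 71.4%, the FAM72A region with 37.5 above 65.0%, the region with 25.7 above 56.1%, the FAM72D and SRGAP2B region with 24.3 above 54.8%, and the weak region above 22.3%. The regions were short, from 500 to 1327 bases, and 2 of them were exactly 500 bases wide, as were 37.1% of all regions. Per kb of region, the FAM72D region rose above the FAM72A region inside the gene and the region at -1440 to -113. The order was otherwise the same. FAM72B had 75.8, SRGAP2 52.1, FAM72D 48.5, the FAM72A region inside the gene 46.1, the region at -1440 to -113 19.4 and the weak region 8.77, against a median of 12.5 near start sites.

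Among regions of similar width, within 1.2-fold, a comparison chosen after seeing the data, the means stood out more. The FAM72B region was above 99.9% of 2767 such regions, whose median was 7.52, and the FAM72D region was above 99.8% of 4690 regions, whose median was 2.51. The SRGAP2 region and the FAM72A region inside the gene were above 99.0% and 98.6% of the regions of their width. The region at -1440 to -113 was above 74.4% and the weak FAM72B region above 86.0%. The 4 regions with the highest means per kb, 46.1 to 75.8, were those in which 0% to 19.0% of 50-base stretches were found once, and the other 2, with 8.77 and 19.4, had 61.7% and 27.6%. The part of repeated sequence in these levels was not tested. The 134 regions near start sites with a median of 4 or more places, which include these 6, had a median mean of 3.54, below the 19.6 of the 22658 regions with a median of 1. They were also narrower, with a median width of 500 against 1455.5 bases, and per kb the medians were 6.61 and 12.6. The means of all 6 were above the median mean of those 134. The FAM72B region stood above 95.5% of them, the SRGAP2 region above 90.3% and the FAM72A region inside the gene above 88.8%. The region at -1440 to -113 stood above 85.8%, the FAM72D region above 85.1% and the weak region above 56.7%.

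**Figure D3:**
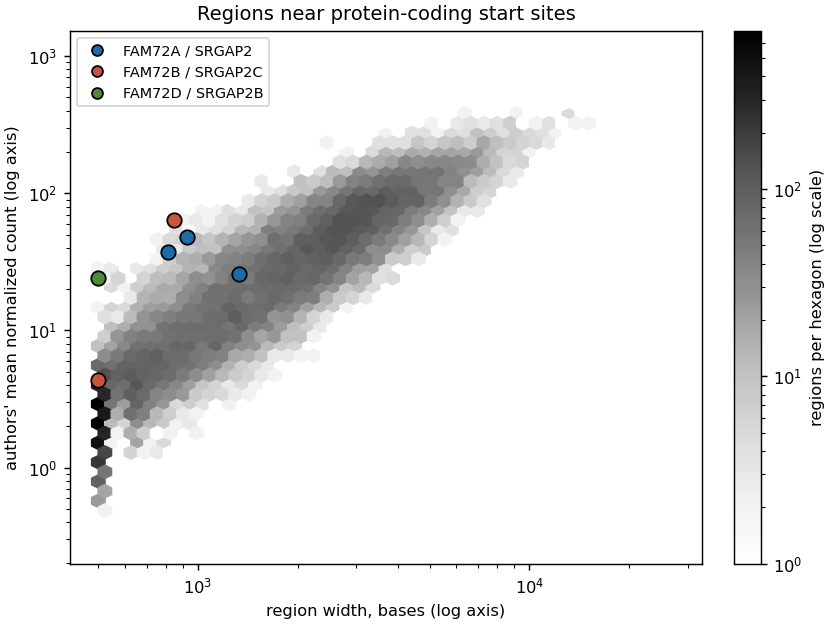
The authors' mean normalized count is plotted against region width in bases, both on log axes, for the 23103 regions near protein-coding start sites, with grey hexagons giving the number of regions. The 6 coloured points are the regions of the FAM72 and SRGAP2 pairs, 4 of which lie along the upper edge of the grey field for their width.

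The coding sequences were compared to see how the copies differ as genes. FAM72A, FAM72B, FAM72C and FAM72D each had 447 coding bases, or 149 codons, and differed from FAM72A by 2, 4 and 3 substitutions in FAM72B, FAM72C and FAM72D. SRGAP2-203 had 3213 coding bases. SRGAP2B-207 and SRGAP2C-202 both had 1377, or 459 codons. They matched the start of SRGAP2 at 99.1% of 1372 aligned bases, with 12 and 13 substitutions and 6 gap bases each. The alignment took in the whole of the shortened sequences, their ends included.

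Other genes of the same pathways had strongest regions with means from 5.79 to 179. The paralogs SRGAP1 and SRGAP3 had 64.5 and 89.9 at their strongest region. Of the SLIT ligands, SLIT2 had 65.9, SLIT3 10.5 and SLIT1 5.79, and of their ROBO receptors ROBO1 had 179, ROBO2 163 and ROBO3 13.1, while ROBO4, the receptor of endothelial cells, had no region. In all, 8 of these 9 genes had a region, with a median of 65.2, and the partner of FAM72A, UNG, had 70.6. Over all 15085 protein-coding genes with a region the median was 49.2, and 24.7% of protein-coding genes had none. The strongest regions of FAM72B and SRGAP2C, FAM72A and SRGAP2, and FAM72D and SRGAP2B stood above 60.7%, 49.1% and 28.0% of these genes. Means grow with region width, and per kb the order differed. Per kb, these strongest regions had 75.8, 52.1 and 48.5. SRGAP1 had 19.0, SRGAP3 29.5 and UNG 21.8, and ROBO1, the highest of the listed pathway genes, had 31.4.

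Of 16 genes from other families copied in recent human evolution 6 had a region, beside 6 of 7 here, a difference that was not tested. Over all protein-coding genes, 15085 of 20020 had one. The genes counted here share their regions in pairs, and SRGAP2B counts only through a region 1178 bases from its nearest start. ARHGAP11A and its copy ARHGAP11B, which acts in neural progenitors, had 179 and 200, and at 24 bases their stretches were found at a median of 2 places. NOTCH2NLA and NOTCH2NLC had 8.53 and 15.9 at a median of 5 places, and NOTCH2, NOTCH2NLB and NOTCH2NLR had no region. GTF2H2C, with a median of 3 places, had 54.1 and GTF2H2 none. CHRNA7, whose 3 regions had a median of 1 place, had 27.9 at the strongest. The pairs BOLA2 and BOLA2B, SERF1A and SERF1B, and CD8B and CD8B2 had no region.

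**Figure D4:**
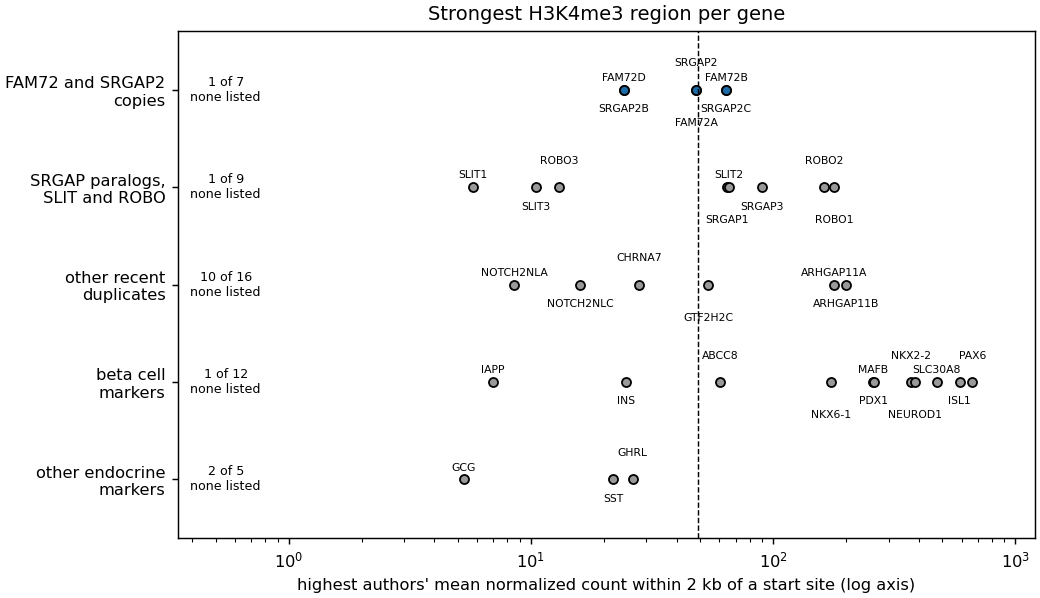
The highest authors' mean normalized count within 2 kb of a start site is plotted on a log axis for each gene of 5 lists, with the number of genes without a region written at the left and the median of 49.2 over all genes as a dashed line. The FAM72 and SRGAP2 genes take 3 values, from 24.3 to 64.0, because the genes of a pair share their regions.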

How the data were processed

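MINT-ChIP data of H3K4me3 were used from 8 samples. Per the study's methods and labels, the authors mapped paired reads with Bowtie2 on hg38, handled alignments in SAMtools, found H3K4me3 peaks with HOMER and compared states with DESeq2. Versions, peak merging, read counting, duplicate handling and the placing of reads with several best matches are not given in the sources used here. The deposited signal is the authors' DESeq2 mean of normalized counts per region, pooled over samples. The 5 other deposited columns (fold change, its error, test score, p and adjusted p of the authors' comparison) were not used, and there are 0 columns of per-sample values.

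Regions, with coordinates as deposited, were matched to start sites of GENCODE release 44. Stretches of 24, 36, 50 and 75 bases were counted in 194 hg38 sequences, alternate loci left out, with up to 60 stretches per region for the background. Counting was tested on simulated data. Loci with 8 kb flanks were aligned with MAFFT 7.526, and short sequences with edlib. No test was run. Named genes are all members and the genes of fixed lists. Members and lists were chosen with earlier results of these data known. Regions of a width within 1.2-fold and the 90-base stretch were chosen after seeing the data. Windows, filters, summaries, stretch lengths and identity windows were varied.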

Additional observations from a re-analysis of the deposited data

How the results depend on the processing

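Of 88 alternative values, 55 were unchanged or, for counts, close to the main count and 33 moved. The number of regions stayed at 6 under windows of 1 kb and 5 kb, protein-coding transcripts or region centres, and was 5 with a minimum mean of 5, which left FAM72B and SRGAP2C with 1. Taking the nearest region in place of the strongest gave 25.7 for FAM72A and 4.39 for SRGAP2C, and summing regions gave 111 for FAM72A and SRGAP2 and 68.4 for FAM72B and SRGAP2C. Per kb, the values were 52.1 for FAM72A and SRGAP2, 75.8 for FAM72B and SRGAP2C and 48.5 for FAM72D and SRGAP2B. The median number of places fell to 3 at 75 bases in the FAM72A region at 486 to 1299, to 3 at 50 and 75 bases in that at -1440 to -113, and to 3 at 36 bases and 1 at 50 and 75 bases in the FAM72B region at -696 to -204. The share of 24-base stretches found once was 0%, 12.4% and 5.33% in the regions of FAM72A from the gene outward, 8.88% and 34.9% in those of FAM72B, and 10.0% in that of FAM72D. Over 2 kb either side, identities were 99.48% for FAM72A and FAM72B, 99.68% for FAM72A and FAM72C, 99.58% for FAM72A and FAM72D, 99.55% for FAM72B and FAM72C, 99.45% for FAM72B and FAM72D and 99.9% for FAM72C and FAM72D. No paired analysis was possible because the table holds no value per sample, and for the same reason no replicate could be left out. The pooled means have no measured error, and gene pairs share their regions, so that the levels of neighbouring genes cannot be told apart. The sequence of the regions is also largely repeated, with a median of 4 places at 24 bases in each. A mean is thus the level listed at a copy, and how much of it came from that copy is not known.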

Other observations

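Outside the windows of the start sites, the gene bodies of the SRGAP2 family held few H3K4me3 regions. SRGAP2, over 261 kb, held 4 more, with means of 5.58 to 22.4, the strongest at chr1:206219904-206220546. SRGAP2B, over 208 kb, held 2 more, with means of 6.15 and 8.66, and SRGAP2C, over 208 kb, held 1 more, with a mean of 3.53 at chr1:121213793-121214293. The bodies of FAM72A, FAM72B, FAM72C and FAM72D held none beyond those near the start sites. These regions lie outside the listing rule and are given as values.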
